A study of Mus musculus with 18 samples.

Results

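The genes described here were 39 tissue-specific members of the basic helix-loop-helix (bHLH) family, the regulators that set neural, muscle, mesodermal and blood cell fates. They were chosen by name out of 21887 mouse coding genes, with earlier results of these data known. Their promoters were examined for H3K4me3 in prospermatogonia, the germ cells of the fetal testis, collected at E17.5 by an Oct4-GFP reporter. H3K4me3 was mapped by CUT&RUN on 4000 nuclei per library, with an antibody-tethered nuclease cutting out marked chromatin. The genotypes were Tet1+/+ (WT), Tet1-/- (KO, no TET1) and Tet1HxD/HxD (HxD, TET1 present with a change in the HxD motif of its catalytic centre). Each genotype had 3 H3K4me3 libraries, described as biological replicates, and 3 IgG libraries that were not used here, 18 samples in all and a single batch label. The series title names the non-catalytic role of TET1 as its question, and setting both alleles beside WT compares loss of the protein with loss of its catalysis.

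Tissue-specific bHLH factors bind E-box sequences as dimers with the widely expressed E proteins (Tcf3, Tcf4 and Tcf12). Id proteins lack the basic DNA-binding region and take E proteins away from these dimers, while Hes and Hey proteins repress many of the same genes. The promoters of such lineage regulators are known for carrying H3K4me3 together with the repressive mark H3K27me3 in cells that do not express them, germ cells included. TET1 oxidises 5-methylcytosine and binds CpG-rich promoters.

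The measured value, called breadth, is the number of bp covered by called H3K4me3 peaks within 5 kb on either side of the marked gene end, the end of the gene with more covered bp over all libraries. The window holds 10001 bp. Of the 39 genes, 38 had a peak within 1 kb of that end in at least 3 libraries and were tested among 16000 coding genes that met the same rule. Neurod4 was the gene left out. Breadth says how far called peaks reach, not how much mark or RNA there was. Fewer cells carrying the mark and less mark per cell cannot be told apart in such libraries.

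RefSeq promoter windows of GRCm38.p6, running from 250 bases before to 50 bases after the annotated start, were matched for 32 of the 39 genes. The windows of 6 genes are printed 5′ to 3′ on the strand of the gene. Every CG dinucleotide is in capitals, so that CG content can be set beside H3K4me3. Ptf1a, Myog and Msgn1 were lower in all 3 libraries of both mutants than in any WT library. Nhlh2 was the gene with a promoter peak in every WT and no KO library. Neurod4 was almost unmarked, and Neurog1 had the most CG dinucleotides of the 32. Ptf1a lies at chr2:19445413-19445712 (+), Myog at chr1:134289754-134290053 (+), Msgn1 at chr12:11208899-11209198 (−), Nhlh2 at chr3:102009895-102010194 (+), Neurod4 at chr10:130280089-130280388 (−) and Neurog1 at chr13:56252131-56252430 (−).
Ptf1a: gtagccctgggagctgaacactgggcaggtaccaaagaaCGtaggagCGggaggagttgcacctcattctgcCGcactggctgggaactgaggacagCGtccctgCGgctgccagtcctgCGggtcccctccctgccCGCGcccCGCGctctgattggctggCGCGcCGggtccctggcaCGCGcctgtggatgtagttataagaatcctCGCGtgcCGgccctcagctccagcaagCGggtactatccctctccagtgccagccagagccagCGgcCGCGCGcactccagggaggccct
Myog: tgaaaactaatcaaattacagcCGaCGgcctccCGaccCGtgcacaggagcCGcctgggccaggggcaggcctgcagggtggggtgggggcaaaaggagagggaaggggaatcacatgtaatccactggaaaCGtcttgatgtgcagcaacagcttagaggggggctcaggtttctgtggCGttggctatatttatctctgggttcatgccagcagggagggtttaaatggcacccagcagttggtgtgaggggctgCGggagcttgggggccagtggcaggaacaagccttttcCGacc
Msgn1: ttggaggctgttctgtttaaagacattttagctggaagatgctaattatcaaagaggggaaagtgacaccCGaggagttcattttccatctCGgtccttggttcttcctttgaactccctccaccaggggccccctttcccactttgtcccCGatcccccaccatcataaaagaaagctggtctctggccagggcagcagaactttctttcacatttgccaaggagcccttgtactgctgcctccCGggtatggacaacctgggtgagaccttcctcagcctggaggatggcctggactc
Nhlh2: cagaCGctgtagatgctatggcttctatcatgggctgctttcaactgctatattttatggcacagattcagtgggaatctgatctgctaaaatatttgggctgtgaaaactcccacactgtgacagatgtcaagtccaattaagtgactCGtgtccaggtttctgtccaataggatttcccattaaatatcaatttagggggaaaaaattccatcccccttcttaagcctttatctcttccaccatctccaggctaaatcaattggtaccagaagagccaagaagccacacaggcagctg
Neurod4: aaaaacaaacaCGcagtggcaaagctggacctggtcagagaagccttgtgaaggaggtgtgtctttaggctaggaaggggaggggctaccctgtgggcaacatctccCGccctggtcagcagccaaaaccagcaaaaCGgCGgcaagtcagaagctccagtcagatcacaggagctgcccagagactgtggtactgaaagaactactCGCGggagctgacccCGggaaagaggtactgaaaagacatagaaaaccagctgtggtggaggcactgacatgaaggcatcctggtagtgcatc
Neurog1: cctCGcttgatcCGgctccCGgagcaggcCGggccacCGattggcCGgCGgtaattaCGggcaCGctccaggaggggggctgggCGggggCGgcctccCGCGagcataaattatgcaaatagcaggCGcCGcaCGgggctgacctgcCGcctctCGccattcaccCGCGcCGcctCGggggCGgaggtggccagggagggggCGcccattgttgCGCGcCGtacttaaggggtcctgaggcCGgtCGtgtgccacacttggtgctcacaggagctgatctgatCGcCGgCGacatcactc

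The 32 windows held between 2 and 32 CG dinucleotides, with a median of 10.5 and a median observed to expected ratio of 0.501. The median was 14 over 17492 coding genes with a window, 22 over those with a peak within 1 kb of the start in all 9 libraries, and 2 over those with none in any. Ptf1a held 23, Myog 9, Msgn1 4, Nhlh2 2, Neurod4 7 and Neurog1 32. Members with a peak within 1 kb of the start in all 9 libraries included CG-poor windows (Myf5 with 3 and Mesp1 with 4). They also included windows richer than the typical marked one (Ptf1a, Neurog1). Nhlh2, as poor in CG as the typical unmarked promoter, had such a peak in 5 of the 9 libraries. None of its peaks reached the printed window. The general E-box CANNTG, which reads the same on both strands, occurred in 23 of the 32 windows (71.9%) and in 68.3% of all 17492. Such matches are letters in a window, not binding sites.

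Nearly every member was marked in these germ cells, although the family is known for directing somatic fates. A peak lay within 1 kb of the marked end in all 9 libraries at 33 of 39 genes. Over all coding genes that share was 59.6% (13043 of 21887). The exceptions were Atoh7, Neurod4, Nhlh1, Nhlh2, Msgn1 and Tcf23. The marked end was not always the annotated start: of the 32 genes with one, it lay over 1 kb away for Neurod6 (3445 bp), Nhlh1 (5304), Lyl1 (3259), Tcf23 (19385) and Bhlha9 (1206). Counted from annotated starts, 25 of 32 members had a peak within 1 kb in all 9 libraries, beside 61.1% of 17492 genes, and Neurod6 and Nhlh1 had one in no library. By library, 38 members had such a peak in each WT library, 34, 37 and 35 in KO replicates 1 to 3, and 37, 35 and 35 in HxD. In WT the tested members also reached far, with a median breadth of 2824, 2934 and 3280 bp in replicates 1 to 3, against 1754, 1778 and 2153 bp over all tested genes. Their strongest promoter peak stood high in its own list by the authors' −log10 q, with a median percentile between 78.0 and 91.5 over the 9 libraries. Neurod4, a neuronal differentiation factor, had 263 bp in WT replicate 3 and 0 bp in the other 8 libraries. Tcf23, a uterine factor, had 567, 902 and 0 bp in WT, 0, 870 and 0 bp in KO, and 0 bp in all 3 HxD libraries. Its marked end lay 19385 bp from its annotated start, where it had 1644 ± 323 bp in WT, 1212 ± 192 in KO and 1168 ± 258 in HxD (SD, n = 3 each), so the 0 values do not describe that start.

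**Figure D1:**
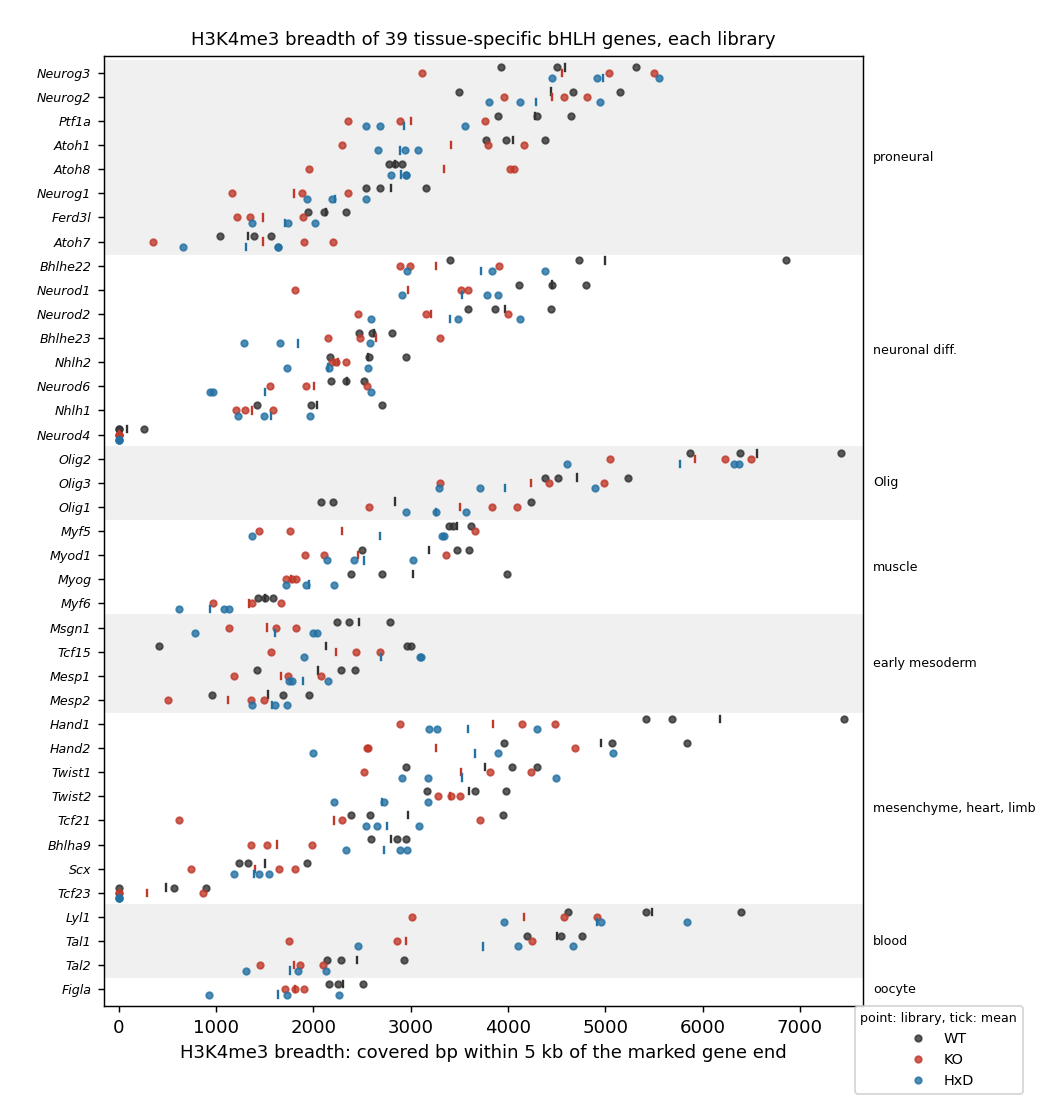
H3K4me3 breadth of each of the 39 genes (x axis, covered bp within 5 kb of the marked gene end), grouped by role; points are libraries (black WT, red KO, blue HxD, 3 each) and ticks are group means. Olig2 and Hand1 reached furthest in WT, Neurod4 was near 0, and for Hand1 all 6 mutant points lie left of the WT points.

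The libraries differed in ways that touch these values. WT lists held 83586 to 128701 peaks covering 76.6 to 108.9 Mb, KO lists 69901 to 80232 peaks covering 50.5 to 73.0 Mb, and HxD lists 49624 to 67925 peaks covering 45.6 to 69.3 Mb. KO replicate 1 had the shortest median peak (433 bp against 641 to 793 bp elsewhere), and HxD replicate 2 the fewest peaks. The depth behind each list is unknown. Of 10 germ cell markers, 6 had a promoter peak in every WT library (Ddx4 and Dazl among them) and Piwil2 had none in any library, and of 8 Sertoli markers 7 had one in every WT library. Promoter peaks on Tet1 itself would not check the genotypes, so none are given.

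Against WT, members were lower in breadth in most cases in both mutants, and no single member passed the test. In KO, 32 of 38 tested members had a lower mean than WT and 6 a higher one, with a median difference of −632 bp. Over all 16000 tested genes the median difference was 45.0 bp and 46.6% had a lower mean. In HxD, 33 of 38 had a lower mean and 5 a higher one, with a median difference of −567 bp, against −125 bp and 61.1% over all tested genes. The KO and HxD comparisons share the 3 WT libraries, so they are set side by side and not counted as independent.

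By limma with Benjamini-Hochberg adjustment over all tested genes at a threshold of 0.05, 0 of 38 members were called narrower or broader in KO, where 0.00625% of all tested genes were called narrower and 0.0% broader. In HxD 0 members were called, with 0.0% of tested genes called narrower and 0.0% broader. The lowest adjusted p of any member was 0.148 in KO and 0.177 in HxD, both for Hand1. At an unadjusted limma p under 0.05, 10 members were narrower and 0 broader in KO, where 7.45% of all tested genes were narrower and 6.76% broader. In HxD 6 members were narrower and 0 broader, against 9.04% and 1.75% of all tested genes. On simulated losses of 1000 bp in the KO comparison this test recovered 0% of 200 changed genes, and of 2000 bp 40%.

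In KO, 10 members had all 3 libraries below every WT library and 0 had all above, where 9.07% and 8.49% of all tested genes did. Those 10 were Bhlha9, Ferd3l, Figla, Hand1, Msgn1, Myog, Neurod1, Neurog1, Ptf1a and Tal2. In HxD, 9 members had all 3 libraries below every WT library, namely Atoh1, Hand1, Msgn1, Myf5, Myf6, Myog, Neurod1, Ptf1a and Tal2, and 0 had all above, against 13.3% and 3.62% of all tested genes. Hand1, Msgn1, Myog, Neurod1, Ptf1a and Tal2 were below WT in all 6 mutant libraries, 6 of 38 members beside 5.86% of all tested genes.

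The size of the shift rested partly on single libraries. The median KO difference of members was −274 bp without KO replicate 1 and −368 bp without WT replicate 3, and the HxD difference was −354 bp without HxD replicate 2. At an unadjusted limma p under 0.05, 3 members were then narrower in KO without its replicate 1 and 1 in HxD without its replicate 2. The shares of all tested genes at that threshold were not counted in these fits, so these counts cannot be set against a background. The median of members minus that of all tested genes was −677 bp in KO and −442 bp in HxD. With all lists cut to the 49624 strongest peaks these gaps were −641 and −454 bp, although the medians themselves became −308 and −278 bp because the median over all genes moved to 333 and 176 bp.

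**Figure D2:**
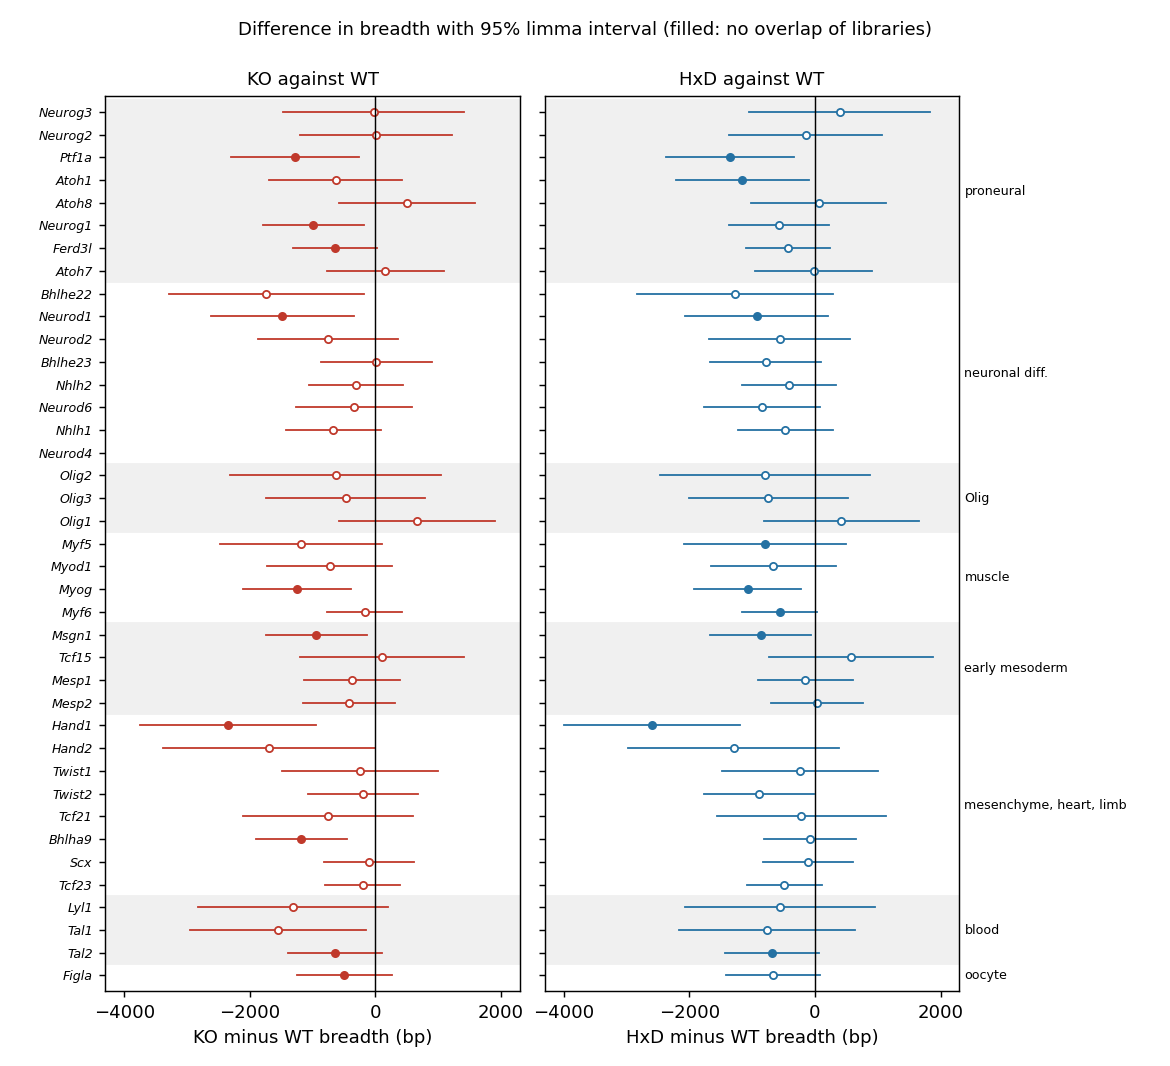
Difference in breadth from WT for each gene (x axis, bp; left KO, right HxD), with the 95% interval of the limma fit; filled points are genes whose 3 mutant libraries all lie below the 3 WT libraries. Most points lie left of 0 in both panels, with Hand1 furthest left.

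Among the mesenchyme, heart and limb regulators, Hand1 showed the largest difference of any member in both mutants. Hand1 is a heart and extraembryonic regulator, on chromosome 11. Its marked end lay inside the lncRNA Gm32915, 39 bp from an end of it, and a peak over both cannot be assigned to either gene. No annotated start was matched for Hand1, so its marked end was not checked against one. Hand1 covered 5685, 5418 and 7448 bp in WT replicates 1 to 3, 2894, 4484 and 4147 bp in KO, and 3270, 3193 and 4294 bp in HxD. No mutant library reached the lowest WT library. The difference was −2342 ± 655 bp in KO (SE, limma adjusted p = 0.148) and −2598 ± 655 bp in HxD (limma adjusted p = 0.177). With lists of equal length these differences were −1073 and −1357 bp, and with the 2 kb window −1543 and −1586 bp. When each library was first shifted to a common mean breadth, the KO adjusted p of Hand1 was 0.0243 by limma. This was the only setting without a replicate block in which a member was called. With libraries so shifted, 281 of 16000 tested genes were called narrower in KO and 183 broader. Over all alternatives the KO adjusted p of Hand1 by limma ranged from 0.0243 to 0.590. The lower coverage was in the core as well as the flanks: the 1 kb on either side of the end was covered over 1984 ± 26.9 bp in WT, but over 1257 ± 260 bp in KO and only 1060 ± 463 bp in HxD (SD, n = 3 each), and the remaining window over 4200 ± 1091, 2584 ± 578 and 2526 ± 181 bp.

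Hand2, the partner of Hand1 in heart and limb and 124 bp from an end of the lncRNA Hand2os1, covered 5072, 3956 and 5838 bp in WT. It covered 2549, 4684 and 2558 bp in KO and 5082, 1999 and 3899 bp in HxD. In each mutant 1 library lay within the WT range, and the limma adjusted p was 0.348 in KO (−1692 ± 787 bp SE) and 0.591 in HxD (−1295 ± 787 bp SE). With lists of equal length the direction turned, to 786 bp in KO and 1113 bp in HxD.
Bhlha9, a limb bud regulator, covered 2861, 2955 and 2594 bp in WT, 1992, 1360 and 1526 bp in KO, and 2888, 2340 and 2963 bp in HxD. All KO libraries were below all WT and all HxD libraries, while WT and HxD overlapped. Its difference from WT was −1177 ± 342 bp in KO (SE, limma adjusted p = 0.159) and −73.0 ± 342 bp in HxD (limma adjusted p = 0.964). Bhlha9 is described on its values, which also holds for Myog, Neurog1, Twist2 and Tal2, each added after the values were seen.
Twist2, a mesenchymal and dermal regulator, covered 3662, 3164 and 3978 bp in WT, 3509, 3415 and 3285 bp in KO, and 3177, 2213 and 2724 bp in HxD. Here the HxD libraries were all below the KO libraries, and 1 of them overlapped WT (HxD −897 ± 410 bp SE, limma adjusted p = 0.450). Twist1, a cranial mesenchyme regulator, had 3762 ± 714 bp in WT, 3522 ± 894 in KO and 3529 ± 843 in HxD (SD, n = 3 each). Its 2 kb core was fully covered in all 6 mutant libraries (2001 bp) and over 1306 ± 413 bp in WT, the opposite of Hand1, while its flanks had 2456 ± 406 bp in WT, 1521 ± 894 in KO and 1528 ± 843 in HxD. Tcf21, an epicardial and stromal regulator, had 2973 ± 850 bp in WT, 2211 ± 1549 in KO and 2760 ± 290 in HxD, and the tendon regulator Scx 1500 ± 376, 1400 ± 578 and 1392 ± 186 bp.

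**Figure D3:**
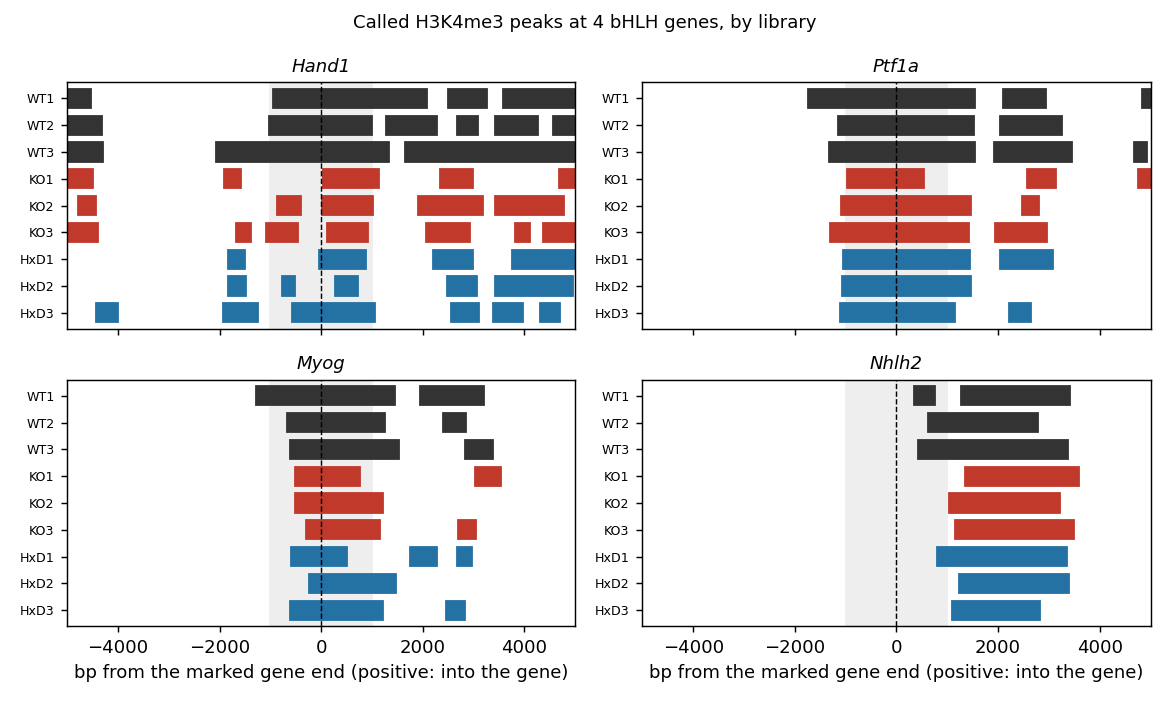
Called peaks (bars) around the marked end of Hand1, Ptf1a, Myog and Nhlh2 in each library (rows; black WT, red KO, blue HxD), by distance in bp from that end, positive into the gene; the grey band is the 1 kb on either side. At Hand1 the WT peaks over the end are longer than those of the mutants, and at Nhlh2 only WT libraries and 1 HxD library have a peak entering the band.

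Of the proneural factors, which start neurogenesis, Ptf1a had the lowest difference from WT in both mutants, followed by Neurog1 in KO and Atoh1 in HxD. Ptf1a, needed for pancreas and for inhibitory neurons of the cerebellum, covered 4297, 3894 and 4644 bp in WT, 2352, 2896 and 3768 bp in KO, and 3558, 2542 and 2682 bp in HxD. All mutant libraries were below all WT libraries. The difference was −1273 ± 476 bp in KO (SE, limma adjusted p = 0.250) and −1351 ± 476 bp in HxD (limma adjusted p = 0.321). Around the CG-rich window printed above, the 2 kb core stayed covered in full in WT and HxD (2001 bp in each library) and over 1843 ± 274 bp in KO, so its HxD difference lay in the flanks, 2277 ± 375 bp in WT and 926 ± 551 bp in HxD (SD, n = 3 each). The marked end of Ptf1a lay inside the lncRNA Ptf1aos, 1011 bp from an end of it. An end of the lncRNA 1810010K12Rik lay in the flank, 2605 bp away. Peaks over these lncRNAs cannot be assigned to Ptf1a alone.
Neurog1, a sensory neuron determinant, covered 2540, 3155 and 2687 bp in WT, 1164, 1889 and 2356 bp in KO, and 2542, 1936 and 2191 bp in HxD. KO lay below WT throughout, and 1 HxD library reached the lowest WT value. The difference was −991 ± 375 bp in KO (SE, limma adjusted p = 0.254) and −571 ± 375 bp in HxD (limma adjusted p = 0.616). With lists of equal length it was −553 and −133 bp.
Atoh1, needed for hair cells and cerebellar granule cells, covered 3771, 4385 and 3985 bp in WT, 2297, 3791 and 4167 bp in KO, and 3074, 2660 and 2945 bp in HxD. For this gene HxD was below every WT library and KO was not (HxD −1154 ± 495 bp SE, limma adjusted p = 0.421, and KO −629 ± 495 bp, limma adjusted p = 0.585).
The other proneural genes had no shared direction. Neurog3, the endocrine pancreas determinant that is also found in undifferentiated spermatogonia, was the broadest of the group in WT, at 5318, 3926 and 4500 bp, with 3113, 5503 and 5038 bp in KO and 4918, 5552 and 4454 bp in HxD. The groups overlapped, with limma adjusted p = 0.990 in KO and 0.883 in HxD. Atoh8 covered 2777, 2912 and 2838 bp in WT, 1956, 4017 and 4059 bp in KO, and 2798, 2953 and 2957 bp in HxD. KO replicates 2 and 3 stood above all others and KO replicate 1 below, and the limma adjusted p was 0.683 in KO and 0.981 in HxD. Atoh7, the retinal ganglion cell determinant, covered 1040, 1563 and 1393 bp in WT, 354, 2203 and 1903 bp in KO, and 1640, 1637 and 663 bp in HxD. It also overlapped (limma adjusted p = 0.906 and 0.992), and the sign of its KO difference, 155 bp, turned to −114 bp with stricter peaks. Neurog2, a cortical neuron determinant, had 4438 ± 853 bp in WT, 4449 ± 440 in KO and 4291 ± 590 in HxD, and Ferd3l, a ventral midline factor, 2133 ± 197, 1486 ± 359 and 1708 ± 326 bp (SD, n = 3 each).

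Of the genes of neuronal differentiation, which act after the proneural factors, Bhlhe22 and Neurod1 had the lowest values relative to WT. Bhlhe22, a cortical and spinal interneuron regulator, covered 4731, 3409 and 6854 bp in WT, 2890, 2992 and 3906 bp in KO, and 4380, 2965 and 3833 bp in HxD. WT replicate 3 stood far above the rest, and the groups overlapped (KO −1735 ± 728 bp SE, limma adjusted p = 0.300, and HxD −1272 ± 728 bp, limma adjusted p = 0.562). Without that library the differences were −807 and −344 bp. Neurod1, which drives neuronal and endocrine differentiation, covered 4112, 4807 and 4454 bp in WT, 1815, 3587 and 3516 bp in KO, and 3899, 2910 and 3782 bp in HxD. All mutant libraries were below all WT libraries (KO −1485 ± 533 bp SE, limma adjusted p = 0.230, and HxD −927 ± 533 bp, limma adjusted p = 0.562). They were −906 bp without KO replicate 1 and −617 bp without HxD replicate 2.
Nhlh2, a hypothalamic regulator, was the only member with a promoter peak in every WT and no KO library, which held for 0.925% of the 14803 coding genes marked in every WT library. Within 1 kb it had 416, 382 and 585 bp in WT, 0 bp in all 3 KO libraries, and 202, 0 and 0 bp in HxD. Yet within 5 kb it covered 2569, 2174 and 2954 bp in WT, 2229, 2196 and 2341 bp in KO, and 2560, 2158 and 1729 bp in HxD. These overlapped (limma adjusted p = 0.722 in KO and 0.719 in HxD), so its main peak remained. That peak began 619 and 416 bp into the gene in WT replicates 2 and 3, and 1357, 1032 and 1147 bp in KO. In WT replicate 1 the main peak began at 1272 bp, and the promoter coverage was a separate peak from 341 to 756 bp. Counted from the annotated start, 34 bp away, 1 KO library had a peak within 1 kb, and with lists of equal length or a 500 bp window no member met this condition. No member had a promoter peak in every WT and no HxD library, beside 1.03% of the same 14803 genes.
The remaining genes of this group were Neurod2 with 3966 ± 436 bp in WT, 3205 ± 770 in KO and 3403 ± 766 in HxD, and Neurod6 with 2347 ± 171, 2010 ± 504 and 1502 ± 945 bp (SD, n = 3 each). Both act in maturing cortical neurons. Nhlh1 had 2035 ± 647, 1366 ± 198 and 1563 ± 370 bp, and Bhlhe23, a retinal interneuron regulator, 2627 ± 173, 2642 ± 592 and 1842 ± 666 bp.

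The Olig genes, of which Olig2 specifies motor neurons and oligodendrocytes, did not share a direction. Olig2 was the broadest member in WT, at 6386, 5875 and 7419 bp, with 5046, 6502 and 6227 bp in KO and 6320, 4604 and 6376 bp in HxD. The mutants overlapped WT in 2 libraries each (limma adjusted p = 0.749 in KO and 0.770 in HxD). Its neighbour Olig1 covered 2201, 2083 and 4240 bp in WT, 2576, 4092 and 3840 bp in KO, and 3569, 3260 and 2949 bp in HxD. WT replicate 3 was the highest of all 9 and the other WT libraries the lowest (KO 661 ± 578 bp SE, limma adjusted p = 0.630, and HxD 418 ± 578 bp, limma adjusted p = 0.853). Olig3 had 4710 ± 460 bp in WT, 4237 ± 860 in KO and 3966 ± 832 in HxD (SD, n = 3 each).

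All 4 muscle determination genes had lower means in both mutants, with median differences of −960 bp in KO and −732 bp in HxD. Myog, which drives terminal muscle differentiation, covered 3992, 2384 and 2705 bp in WT, 1781, 1721 and 1826 bp in KO, and 1930, 1722 and 2210 bp in HxD. The KO values were close together, and all 6 mutant libraries lay below WT (KO −1251 ± 402 bp SE, limma adjusted p = 0.195, and HxD −1073 ± 402 bp, limma adjusted p = 0.346). Without WT replicate 1, its highest library, the differences were −768 and −590 bp. An end of the lncRNA Myoparr lay 243 bp from its marked end, and a peak over both cannot be assigned to either gene. Myf5, the earliest of the family in the somite, covered 3436, 3392 and 3616 bp in WT, 1447, 3663 and 1761 bp in KO, and 3344, 1374 and 3324 bp in HxD. The WT libraries were close together, 1 KO library reached them, and all HxD libraries were below (limma adjusted p = 0.386 in KO and 0.676 in HxD). Myf6, whose window shares 2205 bp with that of Myf5, had 1506 ± 75.5 bp in WT, 1336 ± 352 in KO and 943 ± 283 in HxD, and Myod1 3189 ± 602, 2460 ± 788 and 2526 ± 455 bp (SD, n = 3 each).

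In early mesoderm, Msgn1, the presomitic mesoderm regulator, covered 2787, 2245 and 2370 bp in WT, 1136, 1622 and 1820 bp in KO, and 2035, 781 and 2000 bp in HxD. No mutant library reached WT (KO −941 ± 377 bp SE, limma adjusted p = 0.281, and HxD −862 ± 377 bp, limma adjusted p = 0.433). At this CG-poor promoter WT had 1570 ± 293 bp of core and KO 707 ± 272 bp (SD, n = 3 each), with flanks of 897 ± 31.5 and 819 ± 147 bp. In HxD the core had 1292, 0 and 1474 bp, so its low mean rested on replicate 2, without which the whole HxD difference was −450 bp. Tcf15, a somite regulator, covered 419, 3004 and 2964 bp in WT, 1569, 2438 and 2689 bp in KO, and 3102, 1901 and 3094 bp in HxD. WT replicate 1 alone was low, and the groups overlapped (limma adjusted p = 0.958 and 0.790). Without that library the Tcf15 difference was −752 bp in KO and −285 bp in HxD, in place of 103 and 570 bp. Mesp1, a regulator of cardiac mesoderm, had 2044 ± 544 bp in WT, 1667 ± 451 in KO and 1894 ± 222 in HxD, and its neighbour Mesp2, which sets somite boundaries, 1535 ± 513, 1120 ± 537 and 1572 ± 182 bp.

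The blood and endothelial regulators Tal1, Tal2 and Lyl1 all had lower means in both mutants. Tal1, needed for all blood lineages, covered 4547, 4201 and 4765 bp in WT, 1750, 4248 and 2860 bp in KO, and 4670, 2461 and 4102 bp in HxD. WT was even, and 1 library of each mutant lay inside its range (KO −1552 ± 657 bp SE, limma adjusted p = 0.303, and HxD −760 ± 657 bp, limma adjusted p = 0.730). They were −950 bp without KO replicate 1 and −118 bp without HxD replicate 2, and with the 2 kb window the HxD difference turned to 454 bp. Tal2, a midbrain paralog of Tal1, covered 2283, 2137 and 2934 bp in WT, 1453, 2101 and 1865 bp in KO, and 1848, 1312 and 2126 bp in HxD. The highest mutant library was just under the lowest WT library (limma adjusted p = 0.418 in KO and 0.501 in HxD). Lyl1, which acts with Tal1 in blood stem cells, covered 4612, 5414 and 6399 bp in WT, 3010, 4910 and 4574 bp in KO, and 5841, 3959 and 4959 bp in HxD. The groups overlapped (limma adjusted p = 0.415 and 0.835), and with lists of equal length its differences turned to 299.7 bp in KO and 1055 bp in HxD. The marked end of Lyl1 lay 4 bp from an end of Nfix and 3259 bp from the annotated start of Lyl1, so this value may belong to Nfix. From the annotated start Lyl1 had 3626 ± 394 bp in WT, 2595 ± 450 in KO and 3082 ± 891 in HxD (SD, n = 3 each).

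Figla is the member with a germ cell role, as the regulator of zona pellucida genes in oocytes. It covered 2251, 2506 and 2157 bp in WT, 1906, 1815 and 1707 bp in KO, and 2264, 926 and 1731 bp in HxD. KO was below WT in all libraries and HxD overlapped it (KO −495 ± 352 bp SE, limma adjusted p = 0.544, and HxD −664 ± 352 bp, limma adjusted p = 0.525).

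HxD was also compared with KO directly. The median difference of HxD from KO was 36.7 bp, with 18 lower and 20 higher, whereas over all tested genes it was −166 bp and 71.5% were lower in HxD. This median moved with single libraries and scaling. It was −171 bp without KO replicate 1, −92.8 bp without HxD replicate 1, 152 bp without KO replicate 2, 209 bp without HxD replicate 2, and 219 bp with centred libraries, where 10 of 38 were lower. By limma with Benjamini-Hochberg adjustment 0 members were called, with 0.0% of all tested genes called narrower and 0.0% broader, and the lowest adjusted p of a member was 1.0. At an unadjusted limma p under 0.05, 0 members were narrower and 1 broader in HxD, Bhlha9, against 2.69% and 0.219% of all tested genes. The difference for Bhlha9 was 1104 bp, with a 95% interval from 373 to 1836 bp. Twist2 was the 1 member with all HxD below all KO libraries and Bhlha9 the 1 with all above, beside 7.19% and 0.713% of all tested genes. For Hand1 the interval of the HxD minus KO difference ran from −1658 to 1146 bp, which leaves room for differences of that size between the alleles.

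In bp, the lower breadth of members lay more in the flanks than in the core, but the flanks are the wider part. They span 1 to 5 kb on either side of the marked end, and the core 1 kb, so core coverage cannot exceed 2001 bp. In WT the median coverage of the 38 tested members was 1449 bp in the core and 1585.5 bp in the flanks. Within 1 kb of the marked end the median difference of the 38 tested members was −171 bp in KO and −172 bp in HxD, and over 1 to 5 kb it was −380 and −374 bp. Over all tested genes the core differed by 63.0 bp in KO and 0.0 bp in HxD, and the flanks by 0.0 and −87.0 bp. Core coverage was lower than WT for 28 of 38 members in KO and 26 of 38 in HxD, beside 41.4% and 49.8% of all tested genes. Flank coverage was lower than WT for 29 of 38 members in KO and 34 of 38 in HxD, beside 49.3% and 66.7% of all tested genes. Aligned on the annotated start, for 27 members whose start lay within 1 kb of the marked end, mutant means were below WT on both sides. From 5 to 1 kb upstream, peaks covered 17.9 ± 2.26% of bp in WT, 13.2 ± 3.16% in KO and 12.8 ± 2.66% in HxD. From 1 kb upstream to the start, peaks covered 66.6 ± 1.59% of bp in WT, 54.8 ± 11.0% in KO and 53.9 ± 10.1% in HxD (SD, n = 3 each). From the start to 1 kb into the gene the coverage was 82.5 ± 5.21%, 78.1 ± 12.8% and 80.9 ± 6.50%. From 1 to 5 kb into the gene it was 26.3 ± 2.91%, 19.9 ± 5.51% and 21.0 ± 4.04%. By percent of bp covered, the largest gap between WT and mutant means was therefore from 1 kb upstream to the start.

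**Figure D4:**
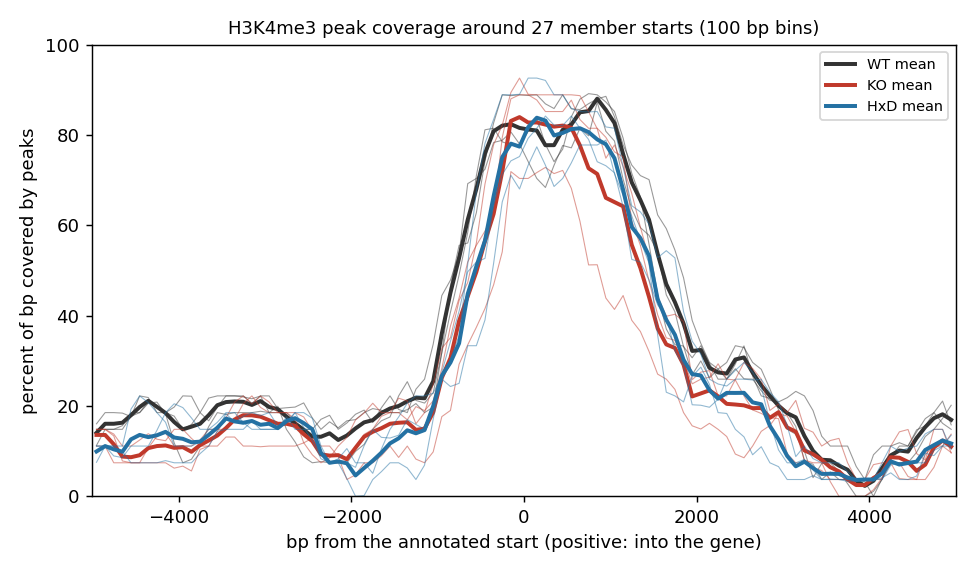
Percent of bp covered by called peaks (y axis) in 100 bp bins by distance from the annotated start (x axis, bp, positive into the gene) over 27 members; thick lines are means of 3 libraries (black WT, red KO, blue HxD) and thin lines single libraries. The genotypes coincide around the start, and the mutant means run mostly below WT further upstream and beyond 1 kb, with some bins the other way.

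The other bHLH and HLH genes, a list of 50 that holds the partners and inhibitors of the members, did not share the lower breadth in KO. Of 48 tested, 16 had a lower and 32 a higher mean in KO, with a median difference of 213 bp, and 23 and 25 in HxD, with a median of 15.7 bp. By limma with Benjamini-Hochberg adjustment 0 passed in either mutant. At an unadjusted limma p under 0.05, 1 of the 48 was narrower and 4 broader in KO, beside 7.45% and 6.76% of all tested genes. In HxD 3 of the 48 were narrower and 0 broader, beside 9.04% and 1.75%. The list was mixed. Of 12 Hes and Hey repressors, 9 had a lower mean in KO and 10 in HxD. Of 29 E protein and broadly used genes, 5 did in KO and 7 in HxD. The difference between this list and the members was not tested.

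The E proteins, which pair with the members on DNA, had higher means in both mutants. Tcf3 covered 1760, 928 and 2137 bp in WT, 2028, 3097 and 4775 bp in KO, and 1844, 2632 and 1577 bp in HxD. Its difference was 1692 ± 575 bp in KO (SE, limma adjusted p = 0.214) and 409 ± 575 bp in HxD (limma adjusted p = 0.856). Tcf4 covered 1772, 3106 and 2060 bp in WT, 3044, 3142 and 3874 bp in KO, and 3877, 2749 and 2892 bp in HxD. It overlapped in 1 KO library and 2 HxD libraries (limma adjusted p = 0.329 and 0.531). Tcf12 covered 1328, 2702 and 2764 bp in WT, 1731, 3168 and 3290 bp in KO, and 2454, 2398 and 2769 bp in HxD. Its groups overlapped (limma adjusted p = 0.693 and 0.885), and its KO difference of 465 bp was −3.33 bp without WT replicate 1. With the broadly used bHLH-zip and bHLH-PAS genes, such as Myc, Max, Usf1 and Clock, 24 of 29 had a higher mean in KO (median 393 bp) and 22 of 29 in HxD (median 133 bp). Mnt, a Max partner that opposes Myc, had 3516 ± 816 bp in WT, 4341 ± 116 in KO and 4305 ± 426 in HxD (SD, n = 3 each), while Myc had 5461 ± 1089, 4211 ± 1691 and 4441 ± 704 bp. Npas2, a clock factor, had 4358 ± 273 bp in WT, 3644 ± 918 in KO and 2978 ± 298 in HxD (limma adjusted p = 0.536 and 0.329).

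**Figure D5:**
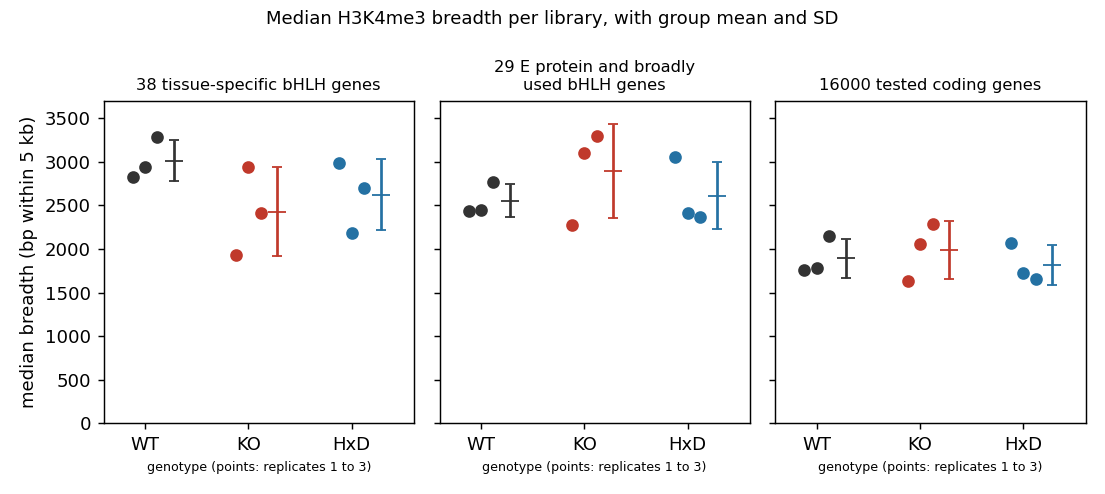
Median breadth per library (y axis, bp within 5 kb, from 0) of the 38 tested members, of 29 E protein and broadly used bHLH genes and of 16000 tested coding genes, by genotype; points are replicates and bars the mean ± SD of 3. For members 1 KO and 1 HxD library reach the WT range, and for the other 2 gene sets KO replicates 2 and 3 lie above all WT points or within their range.

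Id inhibitors did not share a direction in KO. Id1 had 3358 ± 238 bp in WT, 3272 ± 799 in KO and 2315 ± 879 in HxD, Id2 5865 ± 579, 5957 ± 1563 and 5409 ± 1076, Id3 4286 ± 700, 5414 ± 1325 and 4069 ± 933, and Id4 3113 ± 527, 3012 ± 332 and 2666 ± 756 bp (SD, n = 3 each). Their limma adjusted p values lay between 0.478 and 0.974 over both mutants. Among 12 Hes and Hey repressors, 9 had lower means in KO (median −228 bp) and 10 in HxD (median −442 bp). Hes2 covered 3927, 3683 and 4080 bp in WT, 1195, 2359 and 2761 bp in KO, and 1424, 2411 and 2704 bp in HxD. All mutant libraries lay far below WT, with −1792 ± 461 bp in KO (SE, limma adjusted p = 0.136) and −1717 ± 461 bp in HxD (limma adjusted p = 0.219). With centred libraries the KO difference of Hes2 passed (limma adjusted p = 0.0233, range over alternatives 0.0233 to 0.300). In that setting 281 of 16000 tested genes were called narrower in KO and 183 broader. Of the germ cell bHLH genes, Tcfl5, needed in meiosis, covered 0, 950 and 1147 bp in WT, 1621, 1795 and 2323 bp in KO, and 1444, 1492 and 1011 bp in HxD. KO was above WT in all libraries (1214 ± 337 bp SE, limma adjusted p = 0.146), and with centred libraries its adjusted p was 0.0338 by limma, in a range of 0.0338 to 0.411. Sohlh1 and Sohlh2, regulators of spermatogonial differentiation, had 945 ± 862 and 2257 ± 513 bp in WT, 1074 ± 699 and 2273 ± 124 in KO, and 687 ± 601 and 2039 ± 136 in HxD.

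Markers of other cell types were examined beside these values, and none of their genes passed the test. Summed over 4 muscle markers, breadth was 7294 to 7598 bp in WT, while KO had 2440 to 6756 bp and HxD 4342 to 6594 bp, and over 4 neuron markers 11462 to 13207, 7244 to 11553 and 6347 to 10321 bp. Over 6 endothelial markers WT had 10979 to 13466 bp, KO 5505 to 10058 bp and HxD 8362 to 9818 bp, with no promoter peak on Tie1. Over 6 blood markers it was 5242 to 7803, 3780 to 5903 and 5379 to 6083 bp, and Ptprc, Csf1r and Gata1 had none. Over 8 Sertoli markers it was 24320 to 28520, 18424 to 25206 and 15279 to 23850 bp. Over 9 Leydig and interstitial markers it was 19867 to 30005, 12114 to 23990 and 16431 to 22053 bp, with none on Cyp17a1, Star and Hsd3b1. Over 10 germ cell markers WT had 13441 to 17956 bp, KO 17372 to 26965 bp and HxD 12806 to 21505 bp. The part of other cells, of peak number or of KO replicate 1 in the lower breadth of members was not tested beyond the values above.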

How the data were processed

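H3K4me3 CUT&RUN was analysed in 9 libraries, 3 per genotype, from 1 deposited peak list per library in the narrow peak format of MACS2. The submitters' processing notes list MACS2 2.1.0 with Bowtie2 2.5.0 and mm10, and also deepTools 3.5.1, bedtools 2.27.1, SAMtools 1.16.1 and Trim Galore. The sources used here do not say what each tool did or whether IgG libraries served as controls. Each peak has the authors' score, a fold enrichment as a linear ratio, −log10 p and −log10 q, and a summit offset. The smallest deposited −log10 q was 2.00 to 2.02. Score, p and offset were not used.

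Peaks on autosomes, X and Y were merged within a library. RefSeq genes of GRCm38.p6 gave gene ends. Breadth was fitted with limma 3.58.1 in R 4.3.3 on bp, all 9 libraries in 1 linear model with empirical Bayes moderation and trend, two-sided, with Benjamini-Hochberg adjustment over 16000 coding genes with a peak within 1 kb in at least 3 libraries. Python 3.11.15 with numpy 2.4.6 and pandas 2.3.3 did the rest. The test was also run on simulated data. The simulation took the mean and spread of each gene from these libraries and drew noise independently. It therefore held no shift shared by a whole library. In the simulation of 2000 bp losses 7 unchanged genes were called. The lists hold no read counts, so depth is unknown. With 3 libraries per genotype, the p-values measure the spread between these libraries.

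The members and lists were chosen with earlier results of these data known. Values in every library are given for the 5 lowest and 3 highest members by difference from WT in each mutant, the broadest member of each role in WT, and members with a promoter peak in every library of 1 group and none of another. Of the other bHLH genes, the E proteins, Id and Sohlh genes and the 2 lowest and 2 highest in each mutant are given. Alternatives were a 2 kb window, peaks with −log10 q of 5 or more, lists of equal length, centred libraries, other filters, annotated starts, a 500 bp promoter window, a replicate block and leaving out each library. Same-numbered libraries of different genotypes did not deviate together (correlations of −0.236 to 0.0798 in 9 pairs), so the numbers were not used to pair samples.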

Additional observations from a re-analysis of the deposited data

How the results depend on the processing

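No member passed limma's threshold in any of the settings run except Hand1 in KO, which made 1 member called narrower with centred libraries (−2378 bp, adjusted p = 0.0243 by limma) and with the replicate block and centred libraries together (1 member, adjusted p = 0.0261 by limma). With block and centring together, 213 of 16000 tested genes were called narrower in KO and 149 broader. The replicate block alone left 0 members called, with 9 in KO and 5 in HxD at an unadjusted limma p under 0.05, and took the genes called narrower in KO over the whole table from 1 to 0. Members with all KO libraries below all WT libraries numbered 6, and HxD libraries 5, with lists of equal length. The count with a promoter peak in every WT and no KO library, Nhlh2, was 0 with lists of equal length and 0 with a 500 bp window. Leaving out 1 library at a time gave 10 to 20 members below and 0 to 2 above in KO, 9 to 18 and 0 to 1 in HxD, and 1 to 7 and 1 to 6 for HxD against KO, where fewer libraries had to be alike. It gave 1 to 2 members for every WT and no KO library and 0 to 1 for no HxD library. Under these settings the shares of all tested genes by unadjusted p, by overlap of libraries and by promoter peak were not counted. These member counts therefore have no background beside them. In HxD the called genes over the whole table went from 0 to 43 narrower and 12 broader with centring, and in KO from 1 to 281 narrower and 183 broader, to 35 and 364 when lists were of equal length, and to 110 and 8 when no filter was used.

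Single genes that turned sign, the cause of which was not tested, were as follows. With lists of equal length the KO difference became 786 bp for Hand2, 22 for Neurog3, 299.7 for Lyl1, 122 for Npas2, 757 for Id1 and 1109 for Id4. With the same lists the HxD difference became 1113 bp for Hand2, 446 for Atoh7, 1055 for Lyl1, 108 for Bhlha9, 545 for Id2, 540 for Id3, 762 for Id4, 368 for Sohlh1 and 194 for Sohlh2. With the 2 kb window it became 281 bp in KO and 145 in HxD for Olig2, 454 in HxD for Tal1, 140 in KO for Npas2, 298 in KO for Id1, 163 and 58.3 in HxD for Id2 and Id3, and −69.7 in KO for Sohlh2. With stricter peaks it became −114 bp in KO for Atoh7, and 57.3 and 194 in HxD for Id2 and Sohlh2. With centring, with or without the block, it became 128 bp in HxD for Atoh7, 73.3 in HxD for Bhlha9 and −20.5 in KO for Sohlh2. Leaving out 1 library gave ranges across 0 in KO for Atoh7 (−204 to 721 bp), Neurog3 (−506 to 689), Tcf15 (−752 to 540), Tcf12 (−3.33 to 964), Id1 (−506 to 290), Id2 (−430 to 991), Id4 (−370 to 157), Sohlh1 (−343 to 532) and Sohlh2 (−159 to 310). In HxD it did so for Atoh7 (−182 to 306 bp), Tcf15 (−285 to 1008), Bhlha9 (−189 to 122), Tcf12 (−193 to 525), Id3 (−701 to 231), Sohlh1 (−730 to 115) and Sohlh2 (−392 to 76.5). Peak lists carry no depth, so weak coverage that was not called cannot be told from none.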

Other observations

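Some pairs of members lie next to each other on a chromosome, and the spans between them also held peaks. Between Myf5 and Myf6 (5920 bp) peaks covered 967, 738 and 733 bp in WT replicates 1 to 3, 0, 689 and 0 bp in KO, and 450, 445 and 398 bp in HxD. All mutant libraries lay below WT there, and this span overlaps the windows of both genes. Between Mesp1 and Mesp2 (17136 bp) the covered length was 1577 ± 385 bp in WT, 905 ± 382 in KO and 1073 ± 328 in HxD (SD, n = 3 each). Between Olig2 and Olig1 (41091 bp) it was 3664 ± 1280, 2974 ± 258 and 2739 ± 376 bp, and between Ferd3l and Twist1 (28360 bp) 2249 ± 131, 1791 ± 621 and 1771 ± 525 bp. These spans were not tested.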
